A study of Mus musculus with 288 samples.

Results

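CpG wells were compared with unstimulated wells of the same plate and time in mouse bone marrow-derived macrophages. CpG stands for oligonucleotides with unmethylated CpG dinucleotides, which are ligands of Toll-like receptor 9 (TLR9). The wells were taken by label: all 24 wells labelled CpG and all 24 wells labelled NoStim, of 288 wells in all. These labels, the gene lists and a fixed set of genes were chosen with earlier results of these data known. The macrophages came from C57BL/6 mice (age label 12 weeks) and were grown for 7 days with M-CSF. Before the stimulus, wells of 1 plate had spent 24 h with dCA at 100 nM, those of another 24 h with BRD-6989 at 1 µM, and those of the last carry the label DMSO, a solvent, with no duration; the labels call both compounds CDK8 inhibitors. Each pretreatment filled 1 plate of 96 wells, with 11 stimuli or none and 8 collection times (15, 30, 45, 60, 90, 120, 150 and 180 min), and each combination was 1 well. The CpG wells therefore fall into dCA with CpG, BRD-6989 with CpG and DMSO with CpG, against dCA, BRD-6989 and DMSO without a stimulus, with 8 wells in each. CpG always sat in plate column 6 and NoStim in column 1, and each of the 96 positions carried the same well tag on all 3 plates, so stimulus and position cannot be told apart. Likewise, pretreatment and plate are one. No separate cultures or animals are named, so p-values measure the spread between these wells, which may be technical. Where wells of several times are pooled, that spread also holds change of the CpG effect with time. An SD over such wells holds all change with time. The labels say neither which CpG oligonucleotide was used nor at what dose.

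TLR9 sits in endosomes and reads DNA rich in unmethylated CpG, as in bacterial genomes. It signals through the adaptor MyD88 to the kinases that release NF-kB from its inhibitor IkB-alpha, the product of Nfkbia, and to MAP kinases. In macrophages this pathway is known for chemokine and cytokine genes and for a feedback loop in which NF-kB induces its own inhibitors; in plasmacytoid dendritic cells it also leads to type I interferon through IRF7.

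The promoters of 4 genes that were higher in CpG wells are shown, because each holds the consensus site that NF-kB is known to bind. They are RefSeq windows of GRCm38.p6 (mm10), from 250 bases before to 50 bases after the annotated start, printed 5′ to 3′ on the gene's own strand, with the site in capitals. Nfkbia lies on the minus strand at chr12:55492598-55492897, with the site's first base at -29 from the start. Tnfaip2 is on the plus strand at chr12:111442411-111442710 (site at -24). Its window is counted from a start that lies downstream of the first base of the gene span given below. The Tnfaip2 site therefore falls inside that span. Cxcl2 is on the plus strand at chr5:90903649-90903948 (site at -97) and Cxcl1 on the plus strand at chr5:90890995-90891294 (site at -71).
Nfkbia: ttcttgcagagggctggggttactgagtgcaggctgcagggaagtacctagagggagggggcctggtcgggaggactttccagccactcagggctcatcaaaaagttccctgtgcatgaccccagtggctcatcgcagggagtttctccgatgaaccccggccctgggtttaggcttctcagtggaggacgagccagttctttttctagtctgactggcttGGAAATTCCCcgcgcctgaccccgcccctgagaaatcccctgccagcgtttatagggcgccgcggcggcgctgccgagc
Tnfaip2: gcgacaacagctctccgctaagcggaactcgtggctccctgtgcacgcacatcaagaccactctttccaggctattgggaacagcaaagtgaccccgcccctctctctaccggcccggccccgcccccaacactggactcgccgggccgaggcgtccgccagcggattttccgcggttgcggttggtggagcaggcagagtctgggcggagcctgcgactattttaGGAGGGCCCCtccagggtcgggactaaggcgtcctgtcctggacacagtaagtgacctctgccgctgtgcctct
Cxcl2: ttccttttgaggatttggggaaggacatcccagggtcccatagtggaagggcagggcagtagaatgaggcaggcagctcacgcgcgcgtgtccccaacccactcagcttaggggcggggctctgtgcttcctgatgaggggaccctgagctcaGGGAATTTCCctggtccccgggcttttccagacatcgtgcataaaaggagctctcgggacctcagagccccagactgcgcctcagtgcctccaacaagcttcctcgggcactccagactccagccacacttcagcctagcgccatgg
Cxcl1: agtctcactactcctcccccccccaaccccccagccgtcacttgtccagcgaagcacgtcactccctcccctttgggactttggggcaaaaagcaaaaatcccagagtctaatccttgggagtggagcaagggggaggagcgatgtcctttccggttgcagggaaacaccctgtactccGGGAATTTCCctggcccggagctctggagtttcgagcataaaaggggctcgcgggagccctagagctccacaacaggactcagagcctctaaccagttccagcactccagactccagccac

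The window of Nfkb2 at chr19:46304487-46304786 (plus strand) held the site at -39 and again at -11, and no site was found in the windows of Il1b, Icam1 and Gadd45b. Nfkbiz, Ccl5 and Ccl4 had no window. Searched on both strands, the site was present in 11 of the 35 genes with a window among those called higher at 60 to 180 min (31.4%) and in 0 of 15 among those called lower. Of all 4208 tested genes with a window, 355 held it (8.44%), and of all 32851 windows, 5.805%. A match of letters is a description and shows no binding.

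Messenger RNA was read from its 3′ end by digital gene expression, in which each molecule carries a 10-base random barcode, so that a count is a number of distinct barcodes (UMI). The 15 CpG wells of 60 to 180 min held 38660 to 103309 UMI (median 68384), and the 15 NoStim wells 52710 to 125974 (median 78412). The difference in totals did not pass (71956 ± 16953 in CpG and 81626 ± 19621 in NoStim wells, SD; exact sign-flip permutation test over 15 pairs of the same plate and time, 2-sided, p = 0.0585). Genes detected per well were fewer with CpG in 14 of 15 pairs, at 4674 ± 549 in CpG and 5303 ± 521 in NoStim wells (exact permutation p = 0.000305). The share of Rn45s, the ribosomal RNA precursor, was 55.3% ± 8.66 in CpG and 51.9% ± 5.71 in NoStim wells (exact permutation p = 0.0401, higher in 12 of 15 pairs). Without Rn45s, the wells held 31575 ± 7775 UMI with CpG and 38861 ± 8742 UMI without, fewer with CpG in 11 of 15 pairs (exact permutation p = 0.00171). Values below are CPM, the UMI of a gene over the TMM-scaled UMI total of its well and so relative to all RNA counted there; fewer cells and less RNA per cell cannot be told apart. With the share of Rn45s as a covariate, 55 genes were called at 60 to 180 min (39 higher and 16 lower) in place of 66, and with Rn45s left out, 64; the part of the lower UMI total and gene number in the results was not tested. Of 8 macrophage markers, 7 could be tested (Emr1, Csf1r, Cd68, Lyz2, Itgam, Fcgr1 and Cd14). The sum over all 8 was 1374 to 2231 CPM in CpG and 1471 to 2249 CPM in NoStim wells. Defining genes of other cell types were scarce in the 48 wells, with 4 UMI over a B cell list, 21 over plasmacytoid dendritic cell genes, 26 over conventional dendritic cell genes, 12 over T and NK cell genes and 111 over neutrophil genes.

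From 60 to 180 min after CpG, 66 of 5536 genes differed from NoStim at an adjusted p under 0.05, 1.19% of those tested (edgeR quasi-likelihood test with plate and time as blocks, Benjamini-Hochberg). Of these, 46 rose (0.831%) and 20 fell (0.361%), while the median change over all tested genes was -0.13 on the log2 scale. The largest rises were those of the chemokines Ccl5 and Cxcl1, the vesicle fusion gene Stx11, Nfkb2 and Cxcl3. Stx11 rested on 9, 11 and 17 UMI in the CpG wells of the DMSO, dCA and BRD-6989 plates, against 1, 0 and 0 in NoStim wells. Its call was lost without the BRD-6989 plate or without the dCA plate. A MAP kinase phosphatase, Rgs2, Jun and cyclin D1 were among the falls. Tnfaip2, Nfkbia, Ccl4 and Gadd45b were the 4 genes whose 15 CpG wells all lay above all 15 NoStim wells, and no gene lay wholly below.

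**Figure D1:**
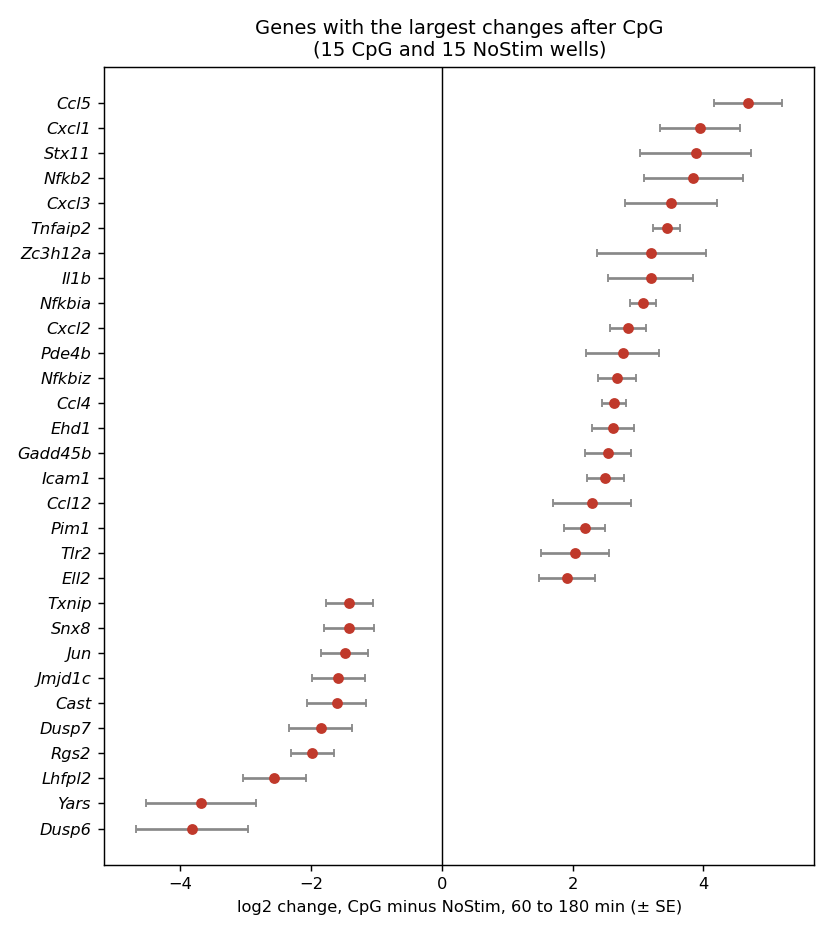
The 20 largest rises and 10 largest falls named by rule, with the log2 change of CpG minus NoStim at 60 to 180 min on the x axis and bars of 1 SE from the edgeR fit on 15 wells a side. Tnfaip2 at 3.44 and Nfkbia at 3.08 have short bars, and genes of few UMI such as Stx11 and Dusp6 have long ones.

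The gene with the strongest evidence was Tnfaip2, a TNF-inducible gene that takes part in membrane protrusions (chromosome 12, 111442450 to 111455018, GRCm38.p6). It had 590 to 2074 CPM in CpG wells (median 1237), against 0 to 265 CPM in NoStim wells (median 93.7). Every CpG well was above every NoStim well, and the change was 3.44 ± 0.21 on the log2 scale (SE; edgeR adjusted p = 8.83e-33), from 1336 UMI with CpG and 151 without. Nfkbia, the inhibitor that holds NF-kB in the cytoplasm, had 657 to 1826 CPM in CpG wells (median 1024), against 0 to 389 CPM in NoStim wells (median 128). The groups again did not overlap, at 3.08 ± 0.20 (adjusted p = 3.65e-30). Nfkbiz encodes IkB-zeta, a nuclear cofactor that NF-kB needs at a set of secondary genes. Its level was 306 to 823 CPM in CpG wells (median 398), against 0 to 350 CPM in NoStim wells (median 35.2). All 15 pairs were higher with CpG although the ranges overlapped, since 2 NoStim wells reached the low CpG wells (2.68 ± 0.29, adjusted p = 1.77e-13).

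Of 22 genes listed as NF-kB subunits, inhibitors and feedback, 19 could be tested. Of these, 7 rose and 0 fell, with a median change of 1.44, against -0.13 over all tested genes, of which 0.831% rose. Besides the 3 above they were Nfkb2, Traf1, Zc3h12a and Tnip3. Nfkb2, the p100 subunit, had 0 to 133 CPM in CpG wells (median 79.3) and 0 to 13.0 CPM in NoStim wells (median 0). The middle CpG well thus lay above the highest NoStim well (3.85 ± 0.76, adjusted p = 2.62e-04), from 69 UMI with CpG and 4 without; without the BRD-6989 plate the call was lost (adjusted p = 0.0759). Zc3h12a, an RNase that cuts inflammatory mRNAs, rested on 30 UMI with CpG and 2 without, a ratio per UMI of 17.0 (exact 95% interval 4.32 to 147; edgeR adjusted p = 0.0218), and lost its call without the dCA plate, the DMSO plate or any of 3 single times, with each plate and time pair as a block, on summed libraries and with the Rn45s covariate. Tnfaip3, the A20 ubiquitin editor that also limits NF-kB, stayed at 122 CPM in CpG and 116 CPM in NoStim wells (0.16, adjusted p = 0.979).

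Chemokines formed the other large group. Of 20 listed, 13 could be tested, 7 rose and 0 fell (median change 1.38), while 0.831% of all tested genes rose. The 7 were Ccl5, Cxcl1, Cxcl3, Cxcl2, Ccl4, Ccl12 and Ccl7. Ccl5 (RANTES, a T cell and monocyte attractant) had 0 to 500 CPM in CpG wells (median 159), against 0 to 33.5 CPM in NoStim wells (median 0). It was higher in 14 pairs and tied at 0 in the other one, with 227 UMI against 8, and changed by 4.68 ± 0.52 (edgeR adjusted p = 7.91e-13). Ccl4 (MIP-1 beta) had 590 to 1183 CPM in CpG wells (median 978), against 30.6 to 290.3 CPM in NoStim wells (median 131). The ranges were apart (2.63 ± 0.19, adjusted p = 2.37e-26).

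The neutrophil attractants Cxcl1, Cxcl2 and Cxcl3, neighbours on chromosome 5, all rose. Cxcl2 had 38.6 to 993 CPM in CpG wells (median 437), against 12.6 to 149.8 CPM in NoStim wells (median 52.4), higher in all 15 pairs (2.85 ± 0.27, edgeR adjusted p = 1.81e-16). Cxcl1 had 12.8 to 286 CPM in CpG wells (median 123), against 0 to 63.1 CPM in NoStim wells (median 0), at 3.95 ± 0.61 (adjusted p = 5.39e-07). Cxcl2 overlapped with NoStim through its lowest CpG well, and Cxcl1 mainly through 1 NoStim well at 63.1 CPM. The monocyte attractant Ccl7 rose less, at 684 ± 243 CPM in CpG and 255 ± 123 CPM in NoStim wells (SD, n = 15 each; 1.38 ± 0.19, edgeR adjusted p = 1.62e-08). The call of Cxcl3 was lost without the BRD-6989 plate (adjusted p = 0.0729), and that of Ccl12 without the dCA plate, the DMSO plate or any of 3 single times, with each plate and time pair as a block, and with the Rn45s covariate. Ccl2, next to Ccl7 and also a monocyte attractant, had 281 ± 201 CPM in CpG and 223 ± 146 CPM in NoStim wells and did not pass (0.37, adjusted p = 0.786). Ccl3, beside Ccl4 on chromosome 11, missed the threshold as well (185 against 91.6 CPM, 1.13 ± 0.35, adjusted p = 0.0963).

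Cytokines were few at this depth. Of 22 listed, 8 could be tested, and 1 passed, beside 1.19% of all tested genes. It was Il1b, the precursor of IL-1 beta, with 0 to 483 CPM in CpG wells (median 76.1), against 0 to 66.2 CPM in NoStim wells (median 0). The middle CpG well exceeded every NoStim well (3.19 ± 0.65, edgeR adjusted p = 4.82e-04), but the highest value came from the DMSO well of 90 min, whose counterparts had 17.2 CPM on the dCA plate and 0 on the BRD-6989 plate, and without the DMSO plate the call was lost (adjusted p = 0.183). Il12b, the p40 subunit of IL-12, had 54 UMI in CpG and 14 in NoStim wells (2.50 ± 0.75, adjusted p = 0.0789). Tnf, the early inflammatory cytokine, had 140 ± 92.4 CPM in CpG and 73.2 ± 44.2 CPM in NoStim wells (SD, n = 15 each), which did not pass at 60 to 180 min (0.86 ± 0.37, edgeR adjusted p = 0.401). Il6 and Il10 were too low to test: over 24 wells each, Il6 had 1 UMI with CpG and 3 without, and Il10 had 12 and 2.

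Some surface genes rose as well. Of 25 listed surface genes, 14 were tested and 4 rose: Icam1, Tlr2, Tnfrsf1b and Cd83 (median change 0.93). Over all tested genes, 0.831% rose. Icam1, the leukocyte adhesion ligand, had 122 to 1054 CPM in CpG wells (median 388), against 0 to 203 CPM in NoStim wells (median 55.1), higher in all 15 pairs (2.50 ± 0.29, edgeR adjusted p = 2.46e-12). Tlr2, the receptor for bacterial lipopeptides, had 104 ± 45.4 CPM in CpG and 26.5 ± 29.6 CPM in NoStim wells (2.04 ± 0.52, adjusted p = 0.0181), a call that was lost when any 1 plate was left out. Outside these lists, Ehd1, an endocytic recycling ATPase, had 57.1 to 526 CPM in CpG wells (median 294), against 0 to 129.8 CPM in NoStim wells (median 37.8), with all 15 pairs higher (2.62 ± 0.32, adjusted p = 1.34e-10). Gadd45b, a stress sensor that restrains JNK signalling, had 118 to 453 CPM in CpG wells (median 243), against 0 to 111.8 CPM in NoStim wells (median 35.2). Its groups did not overlap (2.54 ± 0.35, adjusted p = 8.01e-09). Pim1, a survival kinase, averaged 294 ± 156 CPM in CpG and 67.2 ± 57.4 CPM in NoStim wells (2.18 ± 0.32, adjusted p = 4.87e-08). Pde4b, which breaks down cyclic AMP, averaged 111 ± 76.2 CPM in CpG and 17.3 ± 31.9 CPM in NoStim wells (2.77 ± 0.56, adjusted p = 3.85e-04). The effector list gave 2 rises of 12 tested, the sugar transporter Slc2a6 (1.89) and the mitochondrial superoxide dismutase Sod2 (1.76); neither was called without the DMSO plate, nor Slc2a6 with the Rn45s covariate.

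Among the 20 falls, Rgs2 had the smallest p. It encodes a brake on G protein signalling and had 0 to 264 CPM in CpG wells (median 59.3), against 67.8 to 481 CPM in NoStim wells (median 198). It was lower in 14 of 15 pairs (-1.98 ± 0.33, edgeR adjusted p = 4.15e-06). Lhfpl2, a membrane protein, had 0 to 170 CPM in CpG wells (median 14.8), against 0 to 416 CPM in NoStim wells (median 140), at -2.56 ± 0.48 (adjusted p = 8.52e-05). Jun, a subunit of AP-1, had 0 to 134 CPM in CpG wells (median 68.0), against 22.4 to 624 CPM in NoStim wells (median 141). It was lower in 14 of 15 pairs (-1.49 ± 0.36, adjusted p = 0.00733), and its call was lost without the 120 min wells or without the DMSO plate (adjusted p = 0.340). Dusp6, the phosphatase of ERK, had 2 UMI with CpG and 63 without, a ratio of 0.0360 (exact 95% interval 0.00427 to 0.136; edgeR adjusted p = 0.00252), and Yars, the tyrosyl-tRNA synthetase, had 3 UMI with CpG and 64 without (ratio 0.0532, 0.0107 to 0.163). Neither was called without the BRD-6989 plate (adjusted p = 0.405 for Yars), nor Dusp6 without the DMSO plate (adjusted p = 0.176). Dusp7, another ERK phosphatase, fell by 1.85 on the log2 scale. Ccnd1, cyclin D1, averaged 404 ± 163 CPM in CpG and 638 ± 165 CPM in NoStim wells (-0.70 ± 0.17, adjusted p = 0.0113). It was the only member called among 22 tested cell cycle genes (median -0.41), beside 0.361% of all tested genes called lower. Jun and Dusp7 were not called with the Rn45s covariate, and Dusp7 and Ccnd1 were not called without the dCA plate or without the BRD-6989 plate.

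Interferon genes came next. Of 49 listed, 45 could be tested, edgeR called 0 in either direction, and their median was -0.08. With 1.19% of all genes called, a count of 0 in 45 is near the background. Ifit1, an interferon-induced RNA-binding protein, had 67.3 ± 68.8 CPM in CpG and 34.0 ± 24.8 CPM in NoStim wells (0.85 ± 0.58, edgeR adjusted p = 0.738). Irf7 had 38.7 ± 50.7 CPM in CpG and 63.9 ± 43.0 CPM in NoStim wells (-0.96 ± 0.58, adjusted p = 0.662). Cxcl10, a chemokine that interferon induces, had 297 ± 237 CPM in CpG and 354 ± 223 CPM in NoStim wells (-0.32 ± 0.23, adjusted p = 0.761). Ifnb1, interferon beta itself, had 1 UMI in the 24 CpG wells and 0 in the 24 NoStim wells. The receptor was not seen either: Tlr9 (chromosome 9, 106222598 to 106226876) had 0 UMI in both groups, which at 3628605 UMI in the 48 wells allows up to 0.827 CPM. Of 28 genes of TLR9 transport and MyD88 signalling, 17 were tested and 0 were called (median -0.11), among them Unc93b1, which carries TLR9 to endosomes (-0.37, adjusted p = 0.919). Myd88 itself, at 15 UMI with CpG and 13 without, was below the filter. No member was called in the lists of glycolysis (16 tested, median 0.03), cholesterol synthesis (17 tested, median -0.26) or NRF2 targets (10 tested, median 0.00).

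The response began within 30 min. At 15 to 45 min, 15 of 5682 genes passed (0.264%; edgeR), 13 higher (0.229%) and 2 lower (0.0352%). Cxcl2, Nfkbia, Zfp36, Cxcl1, Tnf, Icam1, Gadd45b, Nfkbiz, Ccl4, Tnfaip2, Junb, Cited2 and Rn45s were higher, and Mfap1b and Set lower. Of these 15, 9 were also called at 60 to 180 min, 60% of the early genes and 13.6% of the late ones. Zfp36 encodes tristetraprolin, which speeds the decay of Tnf mRNA. It had 61.6 to 269 CPM in the 9 early CpG wells, against 0 to 11.6 CPM in the 9 early NoStim wells. All 9 pairs were higher and the groups did not overlap (4.77 ± 0.82, edgeR adjusted p = 8.83e-06), while at 60 to 180 min it had 58.8 ± 65.2 CPM in CpG and 36.8 ± 40.1 CPM in NoStim wells and did not pass (0.70, adjusted p = 0.848). The growth factor-responsive Egr1 had 0 to 173 CPM in early CpG wells, against 0 to 27.3 CPM in early NoStim wells, and missed the threshold (4.05 ± 1.10, adjusted p = 0.0813). Fos, the partner of Jun in AP-1, also missed it (0 to 130 CPM against 0 in every early NoStim well, adjusted p = 0.296).

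Tested time by time with 3 pairs each over 5563 genes, edgeR called 0 genes at 15 min (328 at an unadjusted p under 0.05), 2 at 30 min (0.036%), 6 at 45 min (0.108%), 6 at 60 min (0.108%), 8 at 90 min (0.144%), 3 at 120 min (0.0539%), 10 at 150 min (0.18%) and 15 at 180 min (0.27%, of which 11 higher, 0.198%, and 4 lower, 0.0719%). Nfkbia was called at each time from 30 min on. At 45 min it had 1472, 2199 and 1912 CPM in the dCA, BRD-6989 and DMSO wells with CpG, against 188, 62.1 and 200.1 CPM in those without. Every CpG well was many times its partner (3.73, edgeR adjusted p = 1.15e-10), and by 120 min the CpG mean had come down to 890.4 CPM. Cxcl2 had 1175, 1940 and 2690 CPM in the CpG wells of 45 min on the same plates, against 126, 24.9 and 77.0 CPM in the NoStim wells (4.60, adjusted p = 3.75e-10). By 120 min the CpG wells held 253, 283 and 236 CPM. Tnf had 481, 466 and 321 CPM in the CpG wells of 45 min on those plates and 0 UMI in each of the NoStim wells (adjusted p = 6.82e-06).

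Other genes came later. Tnfaip2 was not called before 45 min and was highest at 150 min, with 1867, 2017 and 2074 CPM in the dCA, BRD-6989 and DMSO wells with CpG, against 26.2, 101 and 143 CPM without (4.35, edgeR adjusted p = 2.43e-11). Ccl5 had 31.1, 0 and 38.0 CPM in the CpG wells of 60 min on those plates, 186, 159 and 84.2 CPM at 120 min, and 500.4, 378 and 471 CPM at 180 min. In NoStim wells it was 33.5, 10.6 and 25.2 CPM at 180 min (4.22 ± 1.05, adjusted p = 0.0403). Nfkbiz had 823, 626 and 419 CPM in the CpG wells of 60 min, against 0, 35.2 and 0 CPM in the NoStim wells (5.20 ± 0.77, adjusted p = 1.02e-06). Among the 20 largest late rises, the mean over CpG wells was highest at 45 min for 3 (Nfkbia, Cxcl2 and Cxcl3), at 60 min for 5, at 90 min for 2, at 120 min for 1, at 150 min for 7 (with Tnfaip2, Icam1 and Ehd1) and at 180 min for 2 (Ccl5 and Nfkb2).

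**Figure D2:**
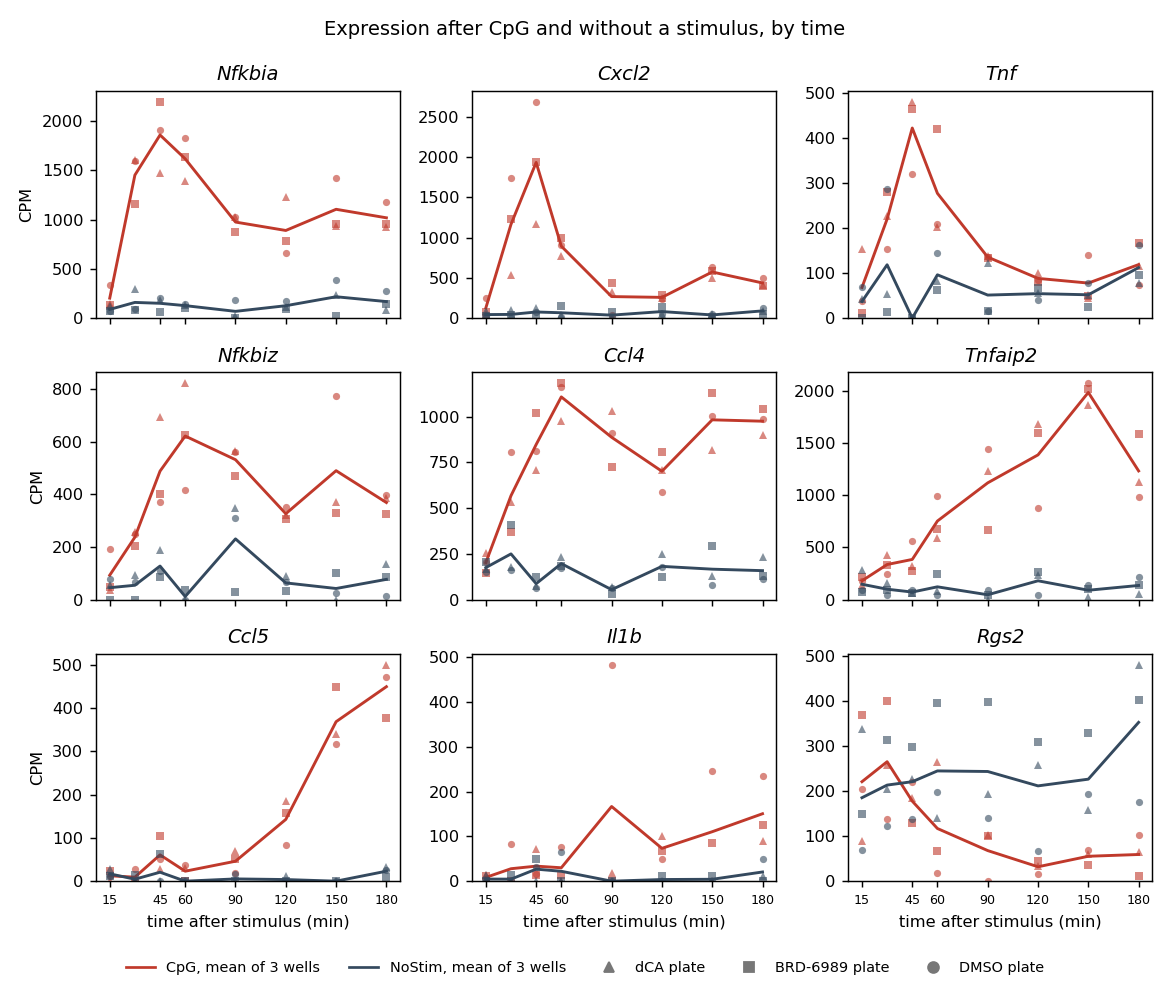
Time courses of 9 genes, as CPM (y axis) against minutes after the stimulus (x axis); points are wells, with the plate as shape, and lines join the means of 3 wells with CpG and 3 without. Nfkbia and Cxcl2 are highest at 45 min, Tnfaip2 at 150 min and Ccl5 at 180 min, and the CpG line of Rgs2 lies below NoStim from 45 min on.

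The change between the early and late windows was tested directly, as the signed late minus early difference of the CpG effects. In that test 6 of 5563 genes passed (0.108%, edgeR), 1 with a positive difference (0.018%) and 5 with a negative one (0.0899%). A negative difference can be a lost rise or a later fall. Tnfaip2 gained (2.0 on the log2 scale, adjusted p = 0.00133). Zfp36 lost most of its early difference (-4.71 ± 1.08, adjusted p = 0.0246), and Rgs2, at 0.12 in the early window, was lower in the late one (difference -2.18, adjusted p = 0.0187). Lfng, a glycosyltransferase of Notch, was at 0 in every CpG well from 90 min on (-6.06 ± 1.36, adjusted p = 0.0212). Mki67, the proliferation marker (-1.77 ± 0.39), and Hspa9, a mitochondrial chaperone (-1.48 ± 0.33), had an adjusted p of 0.0187 each; no gene of this test was called on total read counts.

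The CpG effect was next set side by side for the 3 pretreatments. Within plates, edgeR called 11 genes on the dCA plate (0.199%, all higher), 17 on the BRD-6989 plate (0.307%, 16 higher, 0.289%, and 1 lower, 0.0181%) and 22 on the DMSO plate (0.397%, 18 higher, 0.325%, and 4 lower, 0.0723%). Tnfaip2, Nfkbia, Nfkbiz, Ccl4, Ccl5, Cxcl2, Icam1, Ehd1 and the actin-binding Marcks were the 9 genes called on all 3 plates.

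Tnfaip2 had 590 to 1867 CPM in dCA wells with CpG (mean 1302 ± 502), against 80.0 ± 92.5 CPM in dCA wells without (SD, n = 5 each). On the BRD-6989 plate it had 672 to 2017 CPM with CpG (1310.1 ± 604) and 159 ± 94.1 CPM without, and on the DMSO plate 876 to 2074 CPM with CpG (1275 ± 498) and 106 ± 73.9 CPM without. The CpG wells of the 3 plates covered nearly the same range. The difference of the CpG effect was 0.34 between dCA and DMSO (95% interval -0.66 to 1.35) and -0.75 between BRD-6989 and DMSO (-1.71 to 0.21). Ccl5 averaged 225 ± 195 CPM with dCA, 207 ± 199 CPM with BRD-6989 and 186 ± 199 CPM with DMSO in CpG wells, and its intervals were wide, from -3.08 to 3.65 for dCA and from -1.30 to 4.22 for BRD-6989. Nfkbiz averaged 493 ± 207, 411 ± 137 and 501 ± 171 CPM in the CpG wells of those plates, with intervals from -1.94 to 0.80 for dCA and from -1.66 to 1.26 for BRD-6989.

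Over all 5536 genes, edgeR called 0 differences of the CpG effect between dCA and DMSO (375 at an unadjusted p under 0.05) and 0 between BRD-6989 and DMSO (286 at an unadjusted p under 0.05); DESeq2 called 21 in both together. Intervals left out 0 for Nfkbia with both compounds and for Gadd45b with dCA, but none of these differences passed over all genes. For Gadd45b it was -1.94 between dCA and DMSO (95% interval -3.79 to -0.09, edgeR adjusted p = 0.725), and for Nfkbia 0.94 between dCA and DMSO (0.02 to 1.86, adjusted p = 0.725). With BRD-6989, Nfkbia had 1040.4 ± 339 CPM in CpG and 73.4 ± 60.3 CPM in NoStim wells, and with DMSO 1222 ± 438 CPM in CpG and 235 ± 99.1 CPM in NoStim wells (SD, n = 5 each). In these means the plates were further apart, relative to their level, without CpG than with it. The difference was 1.35 (95% interval 0.41 to 2.29) and did not pass (edgeR adjusted p = 0.437). None of these intervals is narrow enough to show that the pretreatments act alike.

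**Figure D3:**
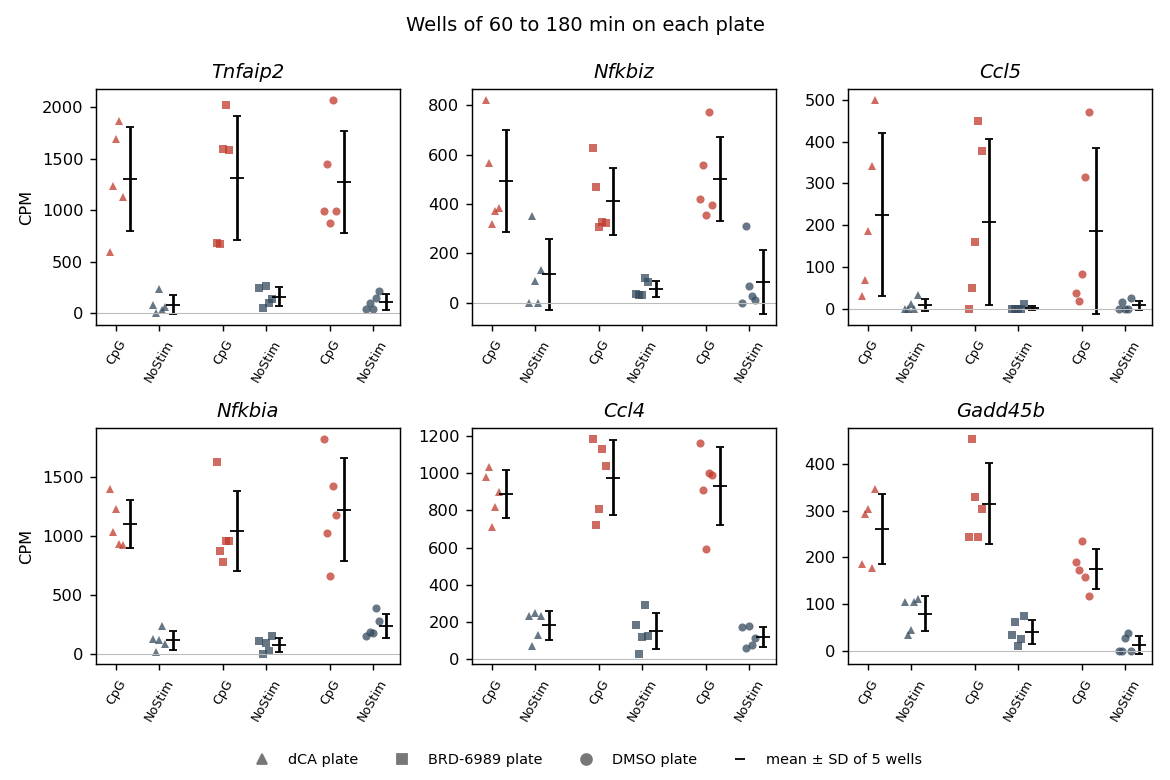
CPM (y axis) of 6 genes in the CpG and NoStim wells of 60 to 180 min on the dCA, BRD-6989 and DMSO plates, 1 point per well with the mean ± SD of 5 wells. The 5 wells are 1 per time. The CpG means lie above the NoStim means on each plate, and the CpG wells of the 3 plates overlap in range.

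CpG was then compared with 3 other Toll-like receptor ligands on the same plates at 60 to 180 min, in 1 fit of 75 wells: R848, a ligand of TLR7, which also signals through MyD88 from endosomes; LPS, a ligand of TLR4, which signals through both MyD88 and TRIF; and Pam3cys, a ligand of TLR1 and TLR2 at the cell surface. Of 5539 genes, edgeR called 7 against R848 (0.126%, all lower with CpG), 91 against LPS (1.64%, 14 higher and 77 lower) and 5 against Pam3cys (0.0903%, 1 higher and 4 lower). The higher one against Pam3cys was Rn45s. These contrasts share the CpG wells.

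Chemokines made up most of the difference from R848. Ccl4 averaged 954 ± 171 CPM with CpG, against 1790 CPM with R848 (-0.86 ± 0.15, edgeR adjusted p = 7.33e-05). Ccl3 averaged 191 CPM with CpG and 542 CPM with R848 (-1.47, adjusted p = 5.37e-05), and Ccl2 291 CPM with CpG and 777 CPM with R848 (-1.48 ± 0.26, adjusted p = 9.21e-05). Cxcl2 (-1.11), Ccl7 (-1.11), Tnf (-1.24) and the protease inhibitor Cstb (-1.05) were the others. Over the list, 5 of 16 tested chemokines were lower with CpG than with R848, 10 were lower than with LPS and 2 lower than with Pam3cys (Cxcl2 and Ccl7). Over all genes, 0.126%, 1.39% and 0.0722% were lower in these contrasts. The 2 calls against Pam3cys were lost on total read counts, without the DMSO plate and without the BRD-6989 plate. Under each of these settings 0 genes were called lower than with Pam3cys. The summed chemokine level was 4250 to 7421 CPM with CpG, 5102 to 14770 CPM with R848, 12112 to 18930 CPM with LPS, 4939 to 11717 CPM with Pam3cys and 2117 to 3795 CPM with NoStim. The CpG range thus lay wholly above NoStim and wholly below LPS.

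Interferon genes separated CpG from LPS. Of 47 tested, 16 were lower with CpG than with LPS (median -1.48, against 0.01 over all genes), beside 1.39% of all 5539 genes. Against R848 (median -0.43) and Pam3cys (median 0.12), 0 were called. With 0.126% and 0.0903% of all genes called in these 2 contrasts, a count of 0 in 47 is near the background. Ifit1 averaged 68.7 CPM with CpG, against 1073 ± 741 CPM with LPS (-3.76 ± 0.37, edgeR adjusted p = 1.55e-14), and 35.1 CPM in NoStim wells. Cxcl10 averaged 309 CPM with CpG and 1648 CPM with LPS (-2.46 ± 0.29), beside 369.6 CPM in NoStim wells. Summed interferon genes ran from 1850 to 4647 CPM with CpG, 2897 to 25216 CPM with LPS and 1786 to 4751 CPM with NoStim, so that CpG and NoStim wells covered nearly the same range.

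The 3 marker genes differed in how they ranked. Tnfaip2 averaged 1329 ± 498 CPM with CpG, 1492 ± 589 CPM with R848, 2025 ± 711 CPM with LPS and 1478 ± 537 CPM with Pam3cys; only the difference from LPS passed (-0.58 ± 0.16, edgeR adjusted p = 0.0427). Ccl5 averaged 211 ± 188 CPM with CpG, 314 ± 313 CPM with R848, 820 ± 677 CPM with LPS and 115 ± 111 CPM with Pam3cys, and again only LPS differed (-1.97 ± 0.23, adjusted p = 9.52e-11). Nfkbiz averaged 480 CPM with CpG, 639 CPM with R848, 483 CPM with LPS and 494 CPM with Pam3cys, and CpG less LPS was 0.02 ± 0.23 (adjusted p = 0.988). Nfkbia was lower with CpG than with LPS (1149 against 2213 CPM, -0.94 ± 0.15, adjusted p = 2.54e-06).

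**Figure D4:**
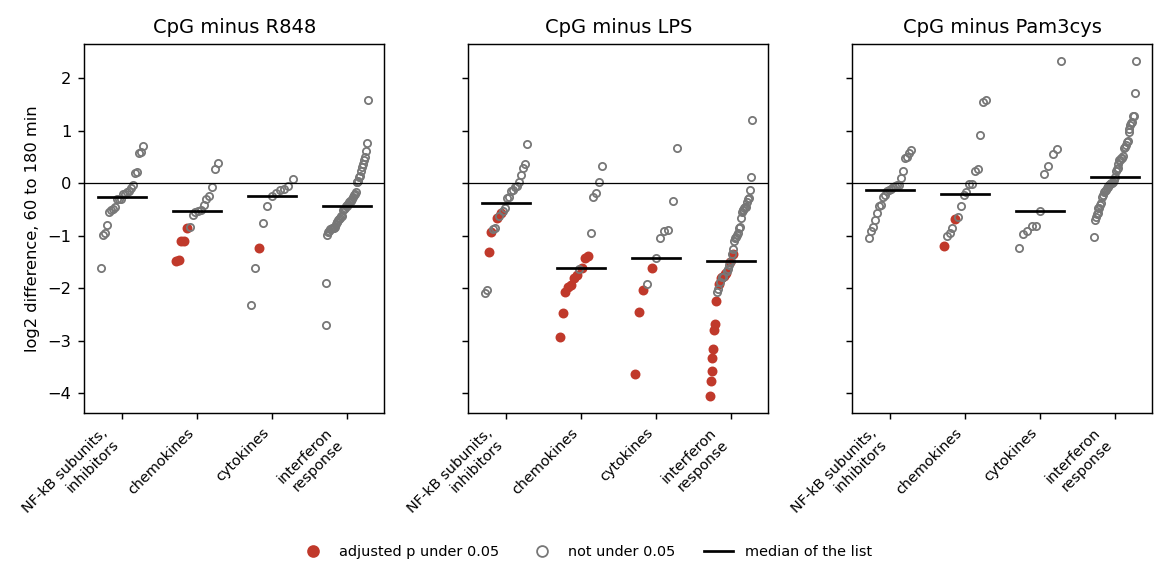
Log2 difference of CpG minus R848, LPS or Pam3cys at 60 to 180 min (y axis), 1 point per tested gene of 4 lists (x axis), filled where the adjusted p was under 0.05, with a bar at the list's median. Against LPS, 10 chemokines and 16 interferon genes are filled and lie below 0; against R848, 5 chemokines and no interferon gene are.

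The wells also carried transcription factor reporters (TF-seq), constructs that are each read through their own sequence tag. Most are named for a factor whose binding sites such a construct carries, but some names are those of a gene or of a minimal promoter. Counts were deposited for 58 reporters. The sum over reporters was 4449 ± 1041 counts in CpG and 1060 ± 244 counts in NoStim wells of 60 to 180 min (SD, n = 15 each), a ratio of 4.20 (exact permutation p = 6.10e-05, the smallest that 15 pairs allow; higher in 15 of 15 pairs). This general rise reached minP_58, whose name is that of a minimal promoter, at 62.4 ± 15.9 counts in CpG and 15.1 ± 5.23 counts in NoStim wells. Counts were higher in all 15 pairs for 56 of 58 reporters, with a median ratio of 3.77, so each reporter was tested relative to the others (TMM scaling).

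NFkB_1, named for NF-kB, stood furthest apart. It had 504 to 1378 counts in CpG wells (median 846), against 19 to 76 in NoStim wells (median 40). All CpG wells were above all NoStim wells, its share of reporter counts was 19.6% ± 3.91 in CpG and 4.27% ± 1.95 in NoStim wells, and relative to the others it changed by 2.43 ± 0.13 (edgeR adjusted p = 3.99e-28). IFNB1_44, named for the interferon beta gene, had 78 to 218 counts in CpG wells (median 172), against 6 to 25 in NoStim wells (median 14), at 1.46 ± 0.11 (adjusted p = 7.58e-20). In all, 12 of 58 reporters were called (20.7%), 4 higher and 8 lower; with the reporter total as library size it was 18, 2 higher and 16 lower. The other higher ones were IRF1_55 (0.48) and NICD_25 (0.42). By plate, NICD_25 was at 0.01 with DMSO (edgeR adjusted p = 0.976) and 0.48 with dCA (adjusted p = 0.185). With BRD-6989 it was at 0.71 (edgeR adjusted p = 0.0325), the only plate on which it was called.

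Relative to the others, AP1_33 was lower (-0.75 ± 0.09), although its counts were 168 ± 39.8 in CpG and 79.0 ± 25.5 in NoStim wells, and so was NRF2_4 (-1.27 ± 0.11), at 60.9 ± 15.2 in CpG and 40.5 ± 11.5 in NoStim wells. Scaled instead to the UMI total of the well, all 58 were called higher, AP1_33 at 1.29 and NRF2_4 at 0.77, so the direction of the lower ones depends on the scaling. At 15 to 45 min 3 were called (5.17%), 2 of them higher (3.45%): NFkB_1 (1.52 ± 0.19) and IFNB1_44 (0.75 ± 0.18).

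On the DMSO plate NFkB_1 counted 95, 428, 558, 813, 892, 1378, 1057 and 1102 in the CpG wells of the 8 times in order, against 35, 53, 49, 45, 34, 40, 76 and 37 in the NoStim wells. The CpG counts on this plate were thus above NoStim at 15 min and highest at 120 min. At 15 min NFkB_1 had 51 counts with CpG against 37 without on the dCA plate, and 46 against 38 on the BRD-6989 plate. The sum of all reporters in those wells was 1230 against 1011 and 1160 against 924, and on the DMSO plate 936 against 795. The dCA plate reached 1080.0 and the BRD-6989 plate 959 at 120 min. The relative change of NFkB_1 was 2.60 ± 0.23 with dCA, 2.34 ± 0.23 with BRD-6989 and 2.34 ± 0.22 with DMSO. Called reporters numbered 5 on the dCA plate (8.62%), 8 on the BRD-6989 plate (13.8%) and 7 on the DMSO plate (12.1%). The CpG effect differed between plates for 0 reporters between dCA and DMSO and for 1 between BRD-6989 and DMSO (1.72%).

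**Figure D5:**
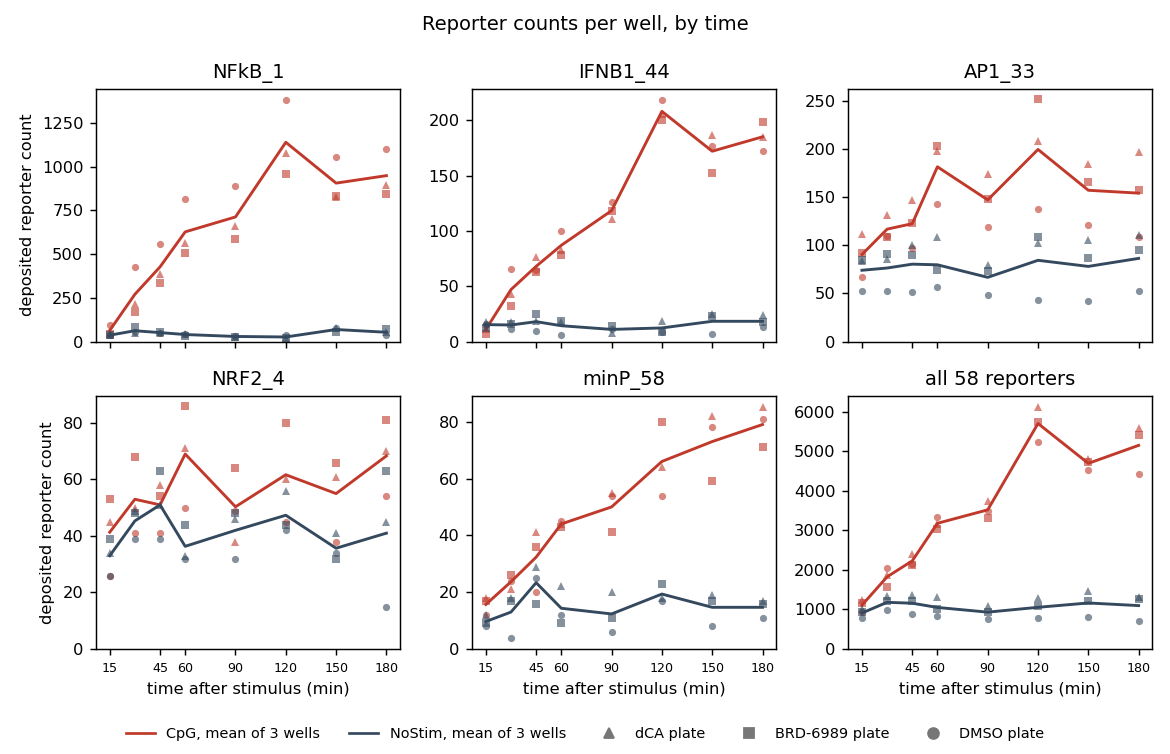
Deposited counts (y axis) of 5 reporters and of all 58 together against minutes after the stimulus (x axis); points are wells, with the plate as shape, and lines join the means of 3 wells. NFkB_1 with CpG lies above NoStim at every time from 15 min on and is highest at 120 min on each plate. The sum of all reporters with CpG is also highest at 120 min on each plate.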

How the data were processed

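Macrophage wells were measured for mRNA 3′ ends, tagged by well (6 bases) and by molecule (10 random bases), and for TF-seq reporters. The authors deposited UMI counts, total read counts and reporter counts per well; the submitters' processing notes name BWA, edgeR and mm10, without versions, annotation or counting steps. The second deposited reporter table, called normalized, held the same values as the counts and was left out. Read counts served as an alternative only. Times are those of the sample labels; the series text gives 0 to 4 h.

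Genes averaging 1 UMI per well or more over the wells of a fit were tested with edgeR 4.0.16 (TMM scaling, quasi-likelihood F test, R 4.3.3, package data.table in version 1.17.8, limma 3.58.1), 2-sided, with plate and time as blocks. P-values were adjusted by Benjamini-Hochberg over all features of a comparison at 0.05. The SE is the log2 change over the root of F. The main test took 15 wells a side at 60 to 180 min; others took 9 a side at 15 to 45 min, 3 pairs per time, plate by stimulus terms, and 75 wells for the ligands. Pairs of the same plate and time come from the labels, and a test with each pair as a block is an alternative. Single values over pairs used an exact sign-flip permutation test. Exact intervals cover counting error only. Other alternatives were DESeq2 1.42.0, other filters, read counts, Rn45s left out or as a covariate, summed libraries and leaving out each plate or time. The tests were checked on simulated data.

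Genes were named by rule: the 20 largest rises and 10 largest falls at 60 to 180 min at a mean of at least 10 CPM and in at least 12 of 15 pairs; the 5 largest rises and 3 largest falls at 15 to 45 min; the 2 largest per time; the 4 largest each way between late and early; the 3 smallest p of each plate difference; the 4 largest each way against each ligand; up to 3 called members each way of a list; up to 8 reporters; and a fixed set of 21 pathway genes. The minimum of 10 CPM held for the early and ligand genes too, and mitochondrial, predicted and Riken-named genes were passed over. Genes listed beyond this rule, as members of a called set, were named after their values were seen. Values of some genes and reporters are not reported here. The wells (by label), the lists and the fixed set were chosen with earlier results of these data known. Symbols are those of the deposited tables; 74 of 76 named genes matched RefSeq (GRCm38.p6), the source of coordinates and promoter windows.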

Additional observations from a re-analysis of the deposited data

Results flagged for a closer look

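In groups of 5 wells of 1 plate and stimulus over 60 to 180 min, 4 of 54 groups held a well whose gap to its nearest neighbour exceeded Dixon's critical value of 0.71 of the range. The groups span 5 times, and chance flags some groups. Ccl5 was 10.6 CPM in the NoStim well of the BRD-6989 plate at 180 min and 0 in the other 4. Nfkbia was 1632 CPM in the CpG well of the BRD-6989 plate at 60 min, the highest of its group. Nfkbiz was 312 CPM in the NoStim well of the DMSO plate at 90 min, the highest of its group. The UMI total was 84452 in the CpG well of the dCA plate at 180 min, also the highest of its group.

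Between 60 to 180 min and 15 to 45 min the CpG effect differed by 2.0 for Tnfaip2, -1.48 for Hspa9, -6.06 for Lfng, -1.77 for Mki67, -2.18 for Rgs2 and -4.71 for Zfp36 on the log2 scale (edgeR test of the difference itself).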

How the results depend on the processing

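At 60 to 180 min, 66 genes were called; DESeq2 called 118 (81 higher, 37 lower), total read counts 43 (35 and 8), libraries summed over times 109 (87 and 22), and leaving out 1 plate or time gave 41 to 68: 43 without the BRD-6989 or DMSO plate, 41 without dCA, and 44 without 150 min. The higher share moved by over 10 points also with no filter (42 higher, 10 lower), no plate or time block (47 and 11) and no 180 min wells (38 and 8). At a mean of at least 3 UMI, 42 were higher and 11 lower. With each plate and time pair as a replicate block, 57 were called late, 15 early and 11 reporters late; without a replicate block, 58 late. Of 40 named late genes, 16 were called under every alternative, with Tnfaip2, Nfkbia, Nfkbiz, Ccl5 and Rgs2. Without the BRD-6989 plate Cxcl3 and Nfkb2 were lost (edgeR adjusted p = 0.0729 and 0.0759).

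At 15 to 45 min, 15 genes became 8 at a mean of 3 UMI, 10 with Rn45s left out and 3 on read counts. Over the 8 times, 50 calls became 109 with DESeq2 and 21 on reads; over the 3 plates, 50 became 96 and 21. Late against early, 6 became 18 and 0. The plate differences, 0 by edgeR, were 21 by DESeq2. Against the 3 ligands, 103 became 50 on reads and 51 to 63 with 1 plate left out (51 without BRD-6989, 63 without dCA, 55 without DMSO). For Pam3cys alone, 5 became 15 with DESeq2 and 0 on reads. With 1 plate left out the Pam3cys count was 1 without BRD-6989, 4 without dCA and 0 without DMSO. Scaled to UMI totals, called reporters numbered 58 late (12), 9 early (3, or 6 on reporter totals) and 174 over the plates (21). Under that scaling all 58 reporters were called higher late, so the 8 called lower in the main test turned higher. Values are given for 5 of these, pooled and then on the dCA, BRD-6989 and DMSO plates. AP1_33 had 1.29, 1.11, 1.19 and 1.59, and CLOCK_30 had 1.38, 1.33, 1.20 and 1.65. IRF3.7_45 had 1.68, 1.68, 1.67 and 1.70, and NRF2_4 had 0.77, 0.64, 0.86 and 0.81. TFEB_28 had 1.67, 1.48, 1.57 and 2.0. The cause of these shifts was not tested. Depth limits genes with under 10 CPM, which hold about 1 UMI per well or fewer.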
